A study of Mus musculus with 4 samples.

Results

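The 7 genes described here belong to the prosensory domain of the developing cochlea, the auditory part of the inner ear, and to the timer that sets when its progenitors mature. Sox2, Prox1 and Isl1 encode transcription factors, Lgr5 and Cd44 encode cell surface proteins, and Lin28b and Hmga2 encode developmental timers. They were chosen by Ensembl gene ID from a list drawn up for their roles, with earlier results of these data known but with no measured value in the rule, and all 7 of 7 were present among the 23879 genes measured. Whole cochleae labelled N-myc ko (2 samples, called biological replicates) were set against whole cochleae labelled wild-type (2 samples, likewise). All 4 came from mouse embryos at embryonic day 15 on a strain background given as 129/Sv and CD-1. Embryos were sorted by PCR genotyping. The labels name no Cre driver, no allele and no number of embryos per sample, so it is not stated which cells lost N-myc, and whether the replicate spread behind each p-value is that between embryos or between pools is not stated either.

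N-myc, one of the MYC transcription factors, promotes growth and division of progenitor cells. The cochlear prosensory domain is the strip of epithelium that stops dividing and then forms the hair cells and supporting cells of the organ of Corti. Sox2 marks and specifies this domain, Lgr5 and Prox1 are expressed within it and in the supporting cells that form from it, and LIN28B keeps progenitors immature by blocking the maturation of let-7 microRNAs, which repress Lin28b and Hmga2 in turn.

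Values are RMA expression values made by the authors, on a log2 scale, so a difference of 1 is a 2-fold change. RMA (robust multi-array average) corrects background, normalises the arrays and combines the probes of a gene. Array signal depends on the probes, so values are compared between samples and not between genes. Across genes, Pearson's r was 0.995 between the N-myc ko arrays, 0.995 between the wild-type arrays and 0.983 to 0.987 between arrays of different groups. The deposited rows carry Ensembl IDs alone, and the symbols of the 7 genes come from the list that defined them. Mycn itself and markers of cochlear and neighbouring cell types were therefore not analysed here, and the labels were not checked against them. Any part of the cell make-up of the samples in the results was not tested. The direction of change also varied with signal strength. The median log2 change was 0.16 for genes with a mean value between 6 and 7 and -0.21 for genes between 8 and 9. It was smaller at the ends of the range, at 0.026 for genes below 5 and -0.053 for genes above 11.

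Of the 7 genes, Prox1 passed the test and was lower in N-myc ko cochleae. The other 6 did not pass it. The limit for a call was a limma adjusted p of 0.14, after the false discovery rate of up to 14% that the study's design names. At that limit 1 of 7 genes was called, 0 higher and 1 lower, against 34.7% of all 23879 genes (14.9% higher and 19.8% lower). At an adjusted p of at most 0.05, Prox1 was still the 1 gene called, where 6.76% of all genes were called higher and 8.20% lower. On the deposited values, the share of these genes that was called was thus not above that of all genes at either limit. With the arrays put on 1 distribution of values (quantile normalisation), 2 of the 7 were called, against 4816 of all 23879 genes. That share was above that of all genes, and with 7 genes such a comparison turns on 1 gene. On the deposited values, the median log2 change of the 7 genes was -0.11, and that of all genes was -0.030. Both N-myc ko arrays lay below both wild-type arrays for 4 of the 7 genes (Prox1, Isl1, Lgr5 and Lin28b), a separation found in 36.2% of all genes, and the groups overlapped for the other 3. Over all genes the groups were apart in either direction in 64.9%. For 0 of the 7 did both N-myc ko arrays lie above, against 28.8% of all genes.

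**Figure D1:**
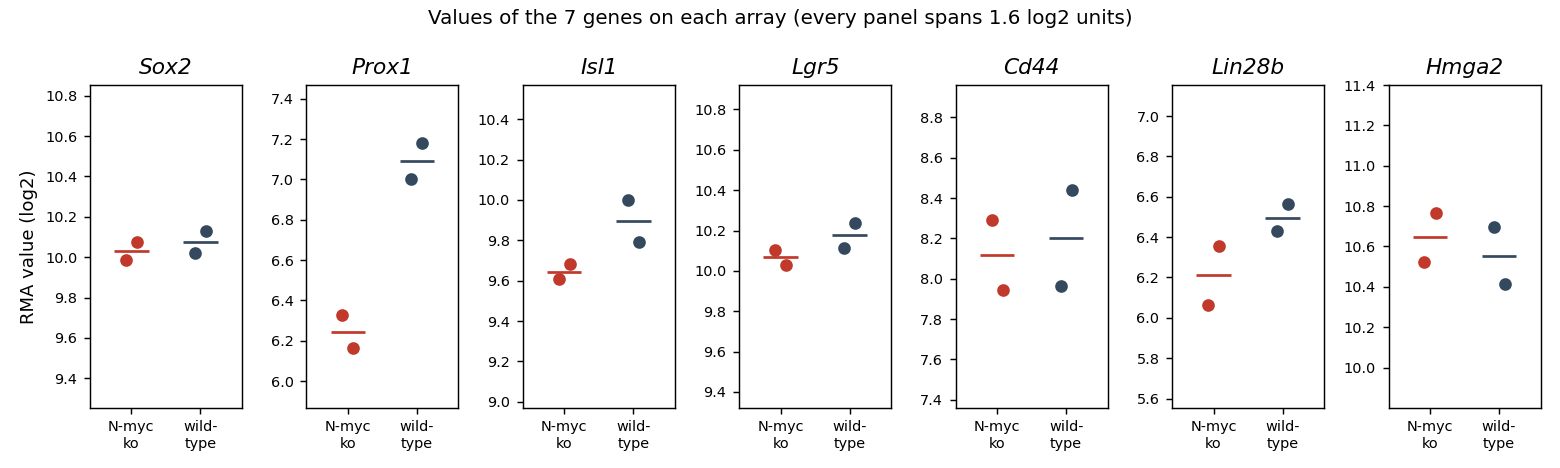
RMA values (log2) of the 7 genes on each of the 4 arrays, with N-myc ko left of wild-type in each panel. Points are single arrays, horizontal lines are group means, and every panel spans the same length of the log2 scale. Prox1 shows the widest gap between the groups, with N-myc ko at 6.33 and 6.16 and wild-type at 6.9997 and 7.18.

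Prox1 (ENSMUSG00000010175) encodes a prospero-type homeodomain transcription factor that is expressed in the prosensory domain and later in supporting cells, and outside the sensory epithelium in some spiral ganglion neurons and in lymphatic endothelium. Its log2 value was 6.33 and 6.16 in N-myc ko cochleae, against 6.9997 and 7.18 in wild-type cochleae. Both N-myc ko arrays were well below both wild-type arrays, and the gap between the groups was several times the gap between replicates (0.17 in N-myc ko and 0.18 in wild-type). The means were 6.25 ± 0.12 in N-myc ko and 7.09 ± 0.13 in wild-type cochleae (SD, n = 2 each), a 1.80-fold lower value (95% interval 1.49 to 2.17) at a log2 change of -0.84 (SE 0.11, limma adjusted p = 0.016). In whole tissue, fewer cells that express a gene and less RNA per cell cannot be told apart. Of all 23879 genes, 188 (0.787%) had a log2 change as low as that of Prox1 or lower.

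Prox1 was a dim gene on these arrays, with a mean value of 6.67 that exceeded 37.3% of the genes. Genes of like signal mostly moved the other way. The 1839 genes within 0.25 of its mean value had a median log2 change of 0.14, with 31.3% called higher and 10.1% called lower. The change of Prox1 lay 0.99 below that median on the log2 scale. After quantile normalisation, which gives the 4 arrays the same distribution of values, the log2 change of Prox1 was -0.96 (limma adjusted p = 0.012), and it stayed called without any 1 array (log2 changes from -0.94 to -0.75, limma adjusted p from 0.038 to 0.056).

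The promoter window of Prox1 is shown because it is the gene that changed, and to set it beside that of Lin28b given further on. RefSeq (GRCm38.p6) sequences from 250 bases before to 50 after an annotated start were at hand for 6 of the 7 genes. Prox1 had 2 windows, and Lgr5 had none and was not searched. The window at chr1:190170778-190171077 (GRCm38.p6, minus strand) reads, 5′ to 3′, with capitals reserved for the CACGTG motif:
Prox1: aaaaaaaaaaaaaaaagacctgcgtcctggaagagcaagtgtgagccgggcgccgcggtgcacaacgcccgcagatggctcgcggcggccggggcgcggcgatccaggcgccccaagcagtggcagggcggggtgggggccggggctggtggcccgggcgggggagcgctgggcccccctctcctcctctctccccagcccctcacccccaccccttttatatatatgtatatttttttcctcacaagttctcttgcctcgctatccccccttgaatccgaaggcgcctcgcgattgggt
Neither Prox1 window held CACGTG, the E-box to which MYC proteins bind with MAX, so the sequence has no capitals. That says only that these letters are not within these windows.

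Isl1 (ENSMUSG00000042258) encodes a LIM-homeodomain transcription factor of the prosensory domain and of spiral ganglion neurons. Its log2 value was 9.61 and 9.68 in N-myc ko cochleae, against 10.001 and 9.79 in wild-type cochleae. The groups did not overlap, but the nearest arrays of the 2 groups were closer to each other than the wild-type replicates were. The means were 9.64 ± 0.052 in N-myc ko and 9.90 ± 0.15 in wild-type cochleae (SD, n = 2 each), a log2 change of -0.25 (SE 0.11, 95% interval -0.51 to 0.0078). This missed the limit narrowly (limma adjusted p = 0.15). The difference was close to that of other genes of like signal: the 1558 genes within 0.25 of its mean value had a median log2 change of -0.17, and 34.0% of them were called lower. After quantile normalisation the log2 change of Isl1 was -0.088 (limma adjusted p = 0.65), whereas without wild-type replicate 2 it was -0.36 and called (limma adjusted p = 0.139).

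Sox2 (ENSMUSG00000074637) encodes the HMG-box transcription factor that specifies the prosensory domain, and it is also expressed in supporting cells and glia. Sox2 had log2 values of 9.99 and 10.08 in N-myc ko cochleae, against 10.02 and 10.13 in wild-type cochleae. The 2 groups overlapped, and all 4 arrays lay within a narrow band. The means were 10.03 ± 0.064 in N-myc ko and 10.08 ± 0.077 in wild-type cochleae (SD, n = 2 each). The log2 change was -0.046 (SE 0.097, limma adjusted p = 0.76), with a 95% interval from -0.28 to 0.19. In folds, the interval runs from 1.21-fold lower to 1.14-fold higher in N-myc ko, so a change of the size measured for Prox1 lies outside it. The sign of this small difference turned to positive after quantile normalisation (0.088), cyclic loess (0.12) and median centring (0.0091). Of the 1268 genes within 0.25 of its mean value, 27.9% were called lower.

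Of the surface proteins, Lgr5 (ENSMUSG00000020140) is a receptor for R-spondins, which strengthen Wnt signalling, and marks prosensory progenitors and a subset of supporting cells. Lgr5 had log2 values of 10.11 and 10.03 in N-myc ko cochleae, against 10.11 and 10.24 in wild-type cochleae. The higher N-myc ko array and the lower wild-type array all but coincided. The means were 10.07 ± 0.053 in N-myc ko and 10.18 ± 0.087 in wild-type cochleae (SD, n = 2 each). The log2 change was -0.11 (SE 0.097, 95% interval -0.34 to 0.13, limma adjusted p = 0.46), near the median of -0.13 for the 1222 genes of like signal, and it was positive under quantile normalisation (0.020) and cyclic loess (0.051).

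Cd44 (ENSMUSG00000005087) encodes a hyaluronan receptor that marks developing pillar cells in the sensory epithelium and is also made by many other cells. In log2 units Cd44 was at 8.29 and 7.94 in N-myc ko cochleae, against 7.96 and 8.44 in wild-type cochleae. The groups overlapped fully, with 1 low and 1 high array in each. The means were 8.12 ± 0.25 in N-myc ko and 8.20 ± 0.34 in wild-type cochleae (SD, n = 2 each). Replicates differed by 0.35 in N-myc ko and by 0.48 in wild-type, where the median gap over all genes was 0.11 in either group. Gaps at least that wide were seen in 7.38% of genes for N-myc ko and in 2.84% for wild-type. The log2 change of -0.085 (SE 0.19, limma adjusted p = 0.78) accordingly had the widest interval of the 7 genes, from -0.54 to 0.37. It was positive after quantile normalisation (0.081), after cyclic loess (0.073) and without either N-myc ko replicate 2 (0.089) or wild-type replicate 2 (0.15).

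Lin28b and Hmga2 are linked through the let-7 microRNAs, which pair with target transcripts through a seed at bases 2 to 8. Of 11 distinct mature let-7 family sequences (miR-98 included) taken from RefSeq GRCm38.p6, 10 share 1 seed. Any entries on 1 chromosome were left out, so the 11 need not be the whole family. A pair is printed 5′ to 3′ to show that shared seed, in capitals. Levels of let-7 were not analysed here.
let-7a-5p: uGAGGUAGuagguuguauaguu
let-7i-5p: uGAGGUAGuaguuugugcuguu

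Lin28b (ENSMUSG00000063804) encodes the RNA-binding protein that blocks let-7 maturation. Its log2 value was 6.07 and 6.36 in N-myc ko cochleae, against 6.43 and 6.56 in wild-type cochleae. Both N-myc ko arrays lay below both wild-type arrays, but N-myc ko replicate 2 was nearer to wild-type replicate 1 than the wild-type replicates were to each other. The means were 6.21 ± 0.21 in N-myc ko and 6.50 ± 0.092 in wild-type cochleae (SD, n = 2 each). The log2 change was -0.29 (SE 0.13, 95% interval -0.59 to 0.019) and missed the limit (limma adjusted p = 0.16).

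Unlike Isl1, which also lay just outside the limit, Lin28b differed in direction from genes of like signal. The 1893 genes within 0.25 of its mean value of 6.35 had a median log2 change of 0.19, with 36.9% called higher and 5.71% called lower, and 6.18% had a change as low as that of Lin28b or lower. With the arrays put on 1 distribution the log2 change of Lin28b was -0.46 (quantile normalisation) or -0.43 (cyclic loess), and it was then called (limma adjusted p = 0.105 and 0.109). The call also depended on single arrays: the log2 change was -0.43 without N-myc ko replicate 2 (limma adjusted p = 0.091) and -0.14 without N-myc ko replicate 1 (limma adjusted p = 0.58). SAM (significance analysis of microarrays), the test named in the study's design, was rebuilt here with 6 label arrangements. At a false discovery rate of 14% it called Lin28b and Isl1 as well as Prox1. It also called 12999 of all 23879 genes, a larger share than 3 of 7.

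The promoter window of Lin28b at chr10:45470152-45470451 (GRCm38.p6, minus strand) is shown because it was the 1 window among the 7 at hand that held CACGTG, given in capitals, 49 bases before the annotated start:
Lin28b: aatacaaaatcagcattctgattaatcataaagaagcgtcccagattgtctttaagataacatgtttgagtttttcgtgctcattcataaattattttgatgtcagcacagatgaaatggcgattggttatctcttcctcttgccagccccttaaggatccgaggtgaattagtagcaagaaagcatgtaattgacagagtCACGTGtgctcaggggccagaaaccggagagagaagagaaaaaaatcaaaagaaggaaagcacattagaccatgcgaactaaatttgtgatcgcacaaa
The motif was searched on both strands, which for this palindrome gives the same matches, and 7.15% of the 32851 promoter windows of the table held it. The looser form CANNTG, which includes CACGTG, was found in 4 of the 7 windows and in 72.3% of all windows. A match describes the sequence and does not show that a factor binds there.

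Hmga2 (ENSMUSG00000056758) encodes an AT-hook chromatin protein of progenitor cells. Hmga2 had log2 values of 10.52 and 10.77 in N-myc ko cochleae, against 10.70 and 10.41 in wild-type cochleae. The groups overlapped, with the highest and the lowest value in different groups. The means were 10.65 ± 0.17 in N-myc ko and 10.56 ± 0.20 in wild-type cochleae (SD, n = 2 each). Its log2 change was 0.091 (SE 0.14, 95% interval -0.24 to 0.42, limma adjusted p = 0.67), the highest of the 7 genes. It was 0.21 after quantile normalisation and turned to -0.031 without N-myc ko replicate 2 and to -0.052 without wild-type replicate 2. The median of the 844 genes of like signal was -0.12.

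**Figure D2:**
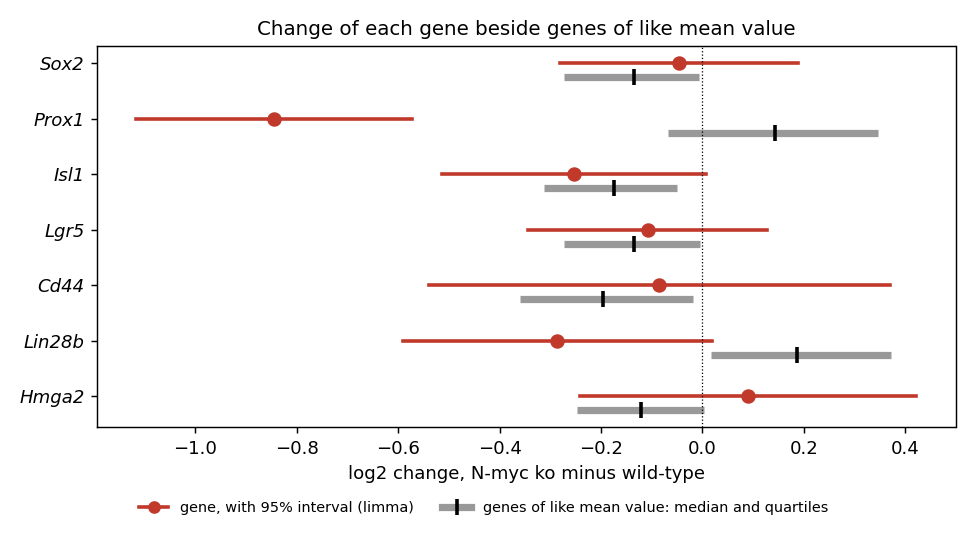
Log2 change (N-myc ko minus wild-type) of each gene, as a point with its 95% limma interval, above the median (tick) and middle quartiles (grey bar) of the change of genes within 0.25 of its mean value. The interval of Prox1, from -1.12 to -0.57, is the 1 interval that excludes 0, and Prox1, Lin28b and Hmga2 lie on the other side of 0 from the median of genes of like signal.

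**Figure D3:**
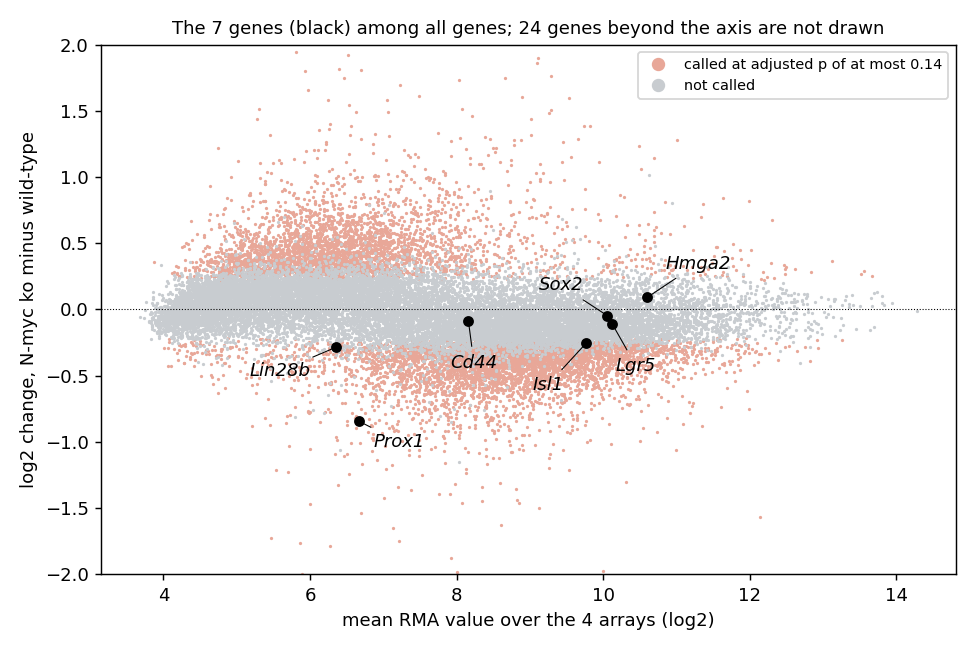
Log2 change (N-myc ko minus wild-type) against mean RMA value (log2) for all genes, with called genes in red, other genes in grey and the 7 genes in black. 24 genes with a change beyond 2 in either direction are not drawn. Prox1 and Lin28b sit among dim genes, where most called genes were higher in N-myc ko, and the other 5 among brighter genes, where most called genes were lower.

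Prox1 was also set against the other genes within each array, which removes a shift that both share equally. These pairs were formed after the values were seen and because the change of Prox1 was the widest, so they are a description. A shift that varies with signal strength is not removed. The median change of genes of like signal was 0.14 for Prox1 and 0.19 for Lin28b. It was -0.14 for Sox2, -0.13 for Lgr5, -0.19 for Cd44, -0.17 for Isl1 and -0.12 for Hmga2. The change of Prox1 minus that of Sox2 was -0.80 on the log2 scale (95% interval -1.38 to -0.22 from a linear model, where 2 degrees of freedom remained). It was -0.74 against Lgr5 (-0.97 to -0.50) and -0.76 against Cd44 (-1.51 to -0.014). These 3 intervals exclude 0. Against Isl1 the difference was -0.59 (-1.58 to 0.39), against Lin28b -0.56 (-1.55 to 0.44) and against Hmga2 -0.94 (-2.27 to 0.40), and these include 0. In all 6 pairs, the difference on both N-myc ko arrays lay below that on both wild-type arrays. The intervals were not adjusted for the 6 pairs, and an exact two-sided permutation test of 2 arrays against 2 cannot give a p below 0.333.

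The genes whose pattern over the 4 arrays was most like a member were taken by the root mean square distance between log2 values centred on each gene's own mean, among 23878 genes. Nearest to Prox1, which had the widest fall, were ENSMUSG00000004360 (distance 0.020) and ENSMUSG00000041014 (distance 0.027). ENSMUSG00000004360 had log2 values of 6.31 and 6.11 in N-myc ko cochleae, against 6.95 and 7.11 in wild-type cochleae. Nearest to Hmga2, the 1 gene with a positive change, were ENSMUSG00000069727 (distance 0.018) and ENSMUSG00000031626 (distance 0.019), with log2 changes of 0.074 and 0.055 that were not called (limma adjusted p = 0.72 and 0.80). With 4 arrays many genes share a pattern, so nothing further is read from it.

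**Figure D4:**
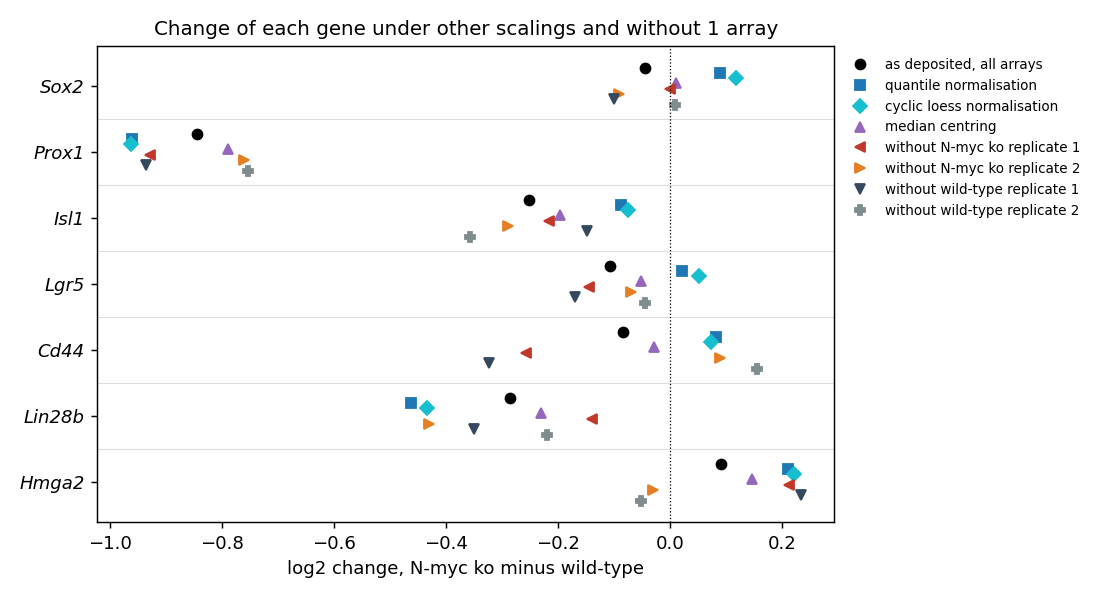
Log2 change (N-myc ko minus wild-type) of each gene on the deposited values, under 3 other scalings and without each array in turn. Prox1 stays between -0.96 and -0.75, Isl1 and Lin28b stay below 0, and Sox2, Lgr5, Cd44 and Hmga2 have values on both sides of 0.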

How the data were processed

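Gene expression was measured on microarrays in 4 samples. The deposited values are on the log2 scale, with 1 row per Ensembl gene ID. The authors made them with RMA (affy package), per the submitters' processing notes. For versions, array design and probe assignment, the sources used here name none.

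From these values, two-sided limma tests (version 3.58.1, R 4.3.3; lmFit, then eBayes, no filter) were fitted to all 23879 rows, and p-values were Benjamini-Hochberg adjusted over all rows. Residual degrees of freedom were 2, with 4.33 more from the prior. The small number of arrays limits the precision. Genes of like signal were those within 0.25 of a gene's mean log2 value. The code was tested on simulated data. Alternatives were a stricter limit, SAM (significance analysis of microarrays, the authors' stated test, rebuilt with 6 label arrangements), other normalisations and variance models, a replicate block, and leaving out each array.

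The 7 genes and all lists were chosen with earlier results of these data known. All 7 are named, with the genes nearest in pattern to the widest rise and fall. Further genes listed by symbol were not analysed here, since the files pair no IDs with names.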

Additional observations from a re-analysis of the deposited data

How the results depend on the processing

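Prox1 kept its direction and its call under the 13 alternatives that tested it, with log2 changes from -0.96 to -0.75. The 1 called gene of 7 became 2 under quantile normalisation and cyclic loess (Lin28b, at -0.46 and -0.43). There 4816 and 4962 of all 23879 genes were called. It became 2 with a brightness trend, with ordinary and with robust variances (Isl1 at -0.25 in both), where 8329 and 8408 genes were called. It became 3 with SAM (Isl1 at -0.25 and Lin28b at -0.29), where 12999 genes were called. It became 0 among the genes above the median brightness, a test that leaves out Prox1 and Lin28b. It was 1 to 2 without 1 array. The 8280 calls over all genes became 3572 at the stricter limit, 4816 after quantile normalisation, 4962 after cyclic loess, 4757 among the brighter genes and 12999 with SAM, and ranged from 3151 to 6559 without 1 array. Apart from the genes left out above, the cause was not tested.

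Signs turned for 4 genes whose intervals include 0. Sox2 was at 0.088 after quantile normalisation, 0.12 after cyclic loess and 0.0091 after median centring, and ranged from -0.10 to 0.0082 without 1 array. Lgr5 was at 0.020 and 0.051 after the first 2 of these, and ranged from -0.17 without wild-type replicate 1 to -0.046 without wild-type replicate 2. Cd44 was at 0.081 and 0.073, and ranged from -0.32 to 0.15 without 1 array. Hmga2 ranged from -0.052 to 0.23 without 1 array, Isl1 from -0.36 to -0.15 and Lin28b from -0.43 to -0.14. Fits without 1 array take the spread of the remaining single array from the other group. The replicate numbers have no stated shared origin (deviations of same-numbered arrays correlate at 0.12). With the replicate block, Lin28b was called at -0.29 (limma adjusted p = 0.102), which made 2 called genes, and 8835 genes were called in all. Windows of 0.1 or 0.5 for genes of like signal moved their medians by at most 0.017. The planned treatment of repeated rows could not differ, since no ID is repeated.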
